A study of Mus musculus with 2 samples.

Results

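The genes described here encode the enzymes that make cholesterol and fatty acids, with a few regulators of these pathways. They were chosen by name from a list of 28 genes, and a probe belonged to the group when the array's annotation gave it one of these names. All 28 were found, with 42 of the 39429 biological probes, among 29924 genes by name. The list holds 7 genes of the mevalonate steps, 11 of the sterol steps, 4 regulators and transporters and 6 of fatty acid synthesis.

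The RNA came from ureters of wildtype NMRI mouse embryos that were dissected at E12.5 and cultured as explants for 18 h. One group received 10 µM BIO (6-bromoindirubin-3-oxime), an inhibitor of the kinase GSK3 that is used to activate canonical WNT signaling, and the control group received the solvent DMSO at 2 parts per 1000. According to the study's methods, cultures for arrays received no serum, so that neither group had lipoproteins from serum in its medium, and each RNA came from a pool of ureters. There were 2 arrays, each hybridised with both RNAs of a replicate. BIO RNA was red in replicate 1 and green in replicate 2, and the sex of the embryos was not determined. BIO was added to the medium of the whole explant and the RNA was taken from whole ureters, so that fewer cells of a type and less RNA per cell cannot be told apart.

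Cells build cholesterol from acetyl-CoA. The mevalonate steps give isoprenoid units, squalene is formed from these, closed to lanosterol, and then trimmed to cholesterol. Fatty acids are built from the same acetyl-CoA by a carboxylase, a synthase, elongases and desaturases. The transcription factors SREBP1 and SREBP2, encoded by Srebf1 and Srebf2, bind sterol regulatory elements in the promoters of many of these genes and are held back in the endoplasmic reticulum by INSIG proteins when sterols are plentiful.

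In replicate 1, 80.9% of biological spots were brighter than background by the scanner's criterion for control and 70.1% for BIO, and in replicate 2 the shares were 73.7% and 78.1%. Across the 21594 genes tested, Pearson's r between the log2 ratios of the arrays was 0.81 and Spearman's rho was 0.68, a description across genes, which are not independent replicates. All 8 WNT target genes listed as a check of the treatment rose with BIO, against 9.14% of all genes tested. Their median log2 ratio was 1.35. The list was chosen with earlier results of these data known, so it is not an independent check. Markers of ureteric epithelium and of ureteric mesenchyme were measured as the label ureter implies: 8 of 9 epithelial and 9 of 9 mesenchymal markers were well above background in all 4 channels, and the remaining one, the uroplakin gene Upk1b, was so in the control channels and in neither BIO channel.

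Of the 28 genes, 12 fell with BIO, 2 rose and 14 did not pass the test (limma, adjusted p below 0.05, n = 2 arrays). Among all genes tested, 14.7% were called lower and 9.14% were called higher. The genes that fell were the mevalonate genes Hmgcs1, Mvd, Idi1 and Fdps, the sterol genes Fdft1, Lss, Tm7sf2, Msmo1 and Nsdhl, the regulators and transporters Insig1 and Stard4, and the desaturase gene Scd1. The genes that rose were Acat2 and Hsd17b7. The falls were modest, with mean log2 ratios from -0.90 for Insig1 to -0.44 for Mvd. The median log2 ratio of the 28 genes was -0.31, against -0.01 for all genes tested. It was -0.43 in replicate 1 and -0.31 in replicate 2. In replicate 1, 24 of the 28 ratios were below 0 against 53.6% of all genes tested, and in replicate 2, 20 of 28 were below 0 against 49.8%.

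The channel levels of BIO lay below both control levels for 19 of the 28 genes and above both for 4, and the remaining 5 overlapped. Of all genes tested, 34.3% had BIO levels below both control levels and 30.7% had them above both. The study filters its other arrays by intensity and fold change, with a difference of at least 2-fold asked for on both arrays, and by this rule 0 of the 28 genes passed in either direction, while 2.04% of all genes passed as lower and 1.04% as higher. The rule has no test, and in the limma test 14 of the 28 genes passed. At a minimum of 1.5-fold, Hmgcs1, Fdft1, Msmo1 and Insig1 passed, all lower. Every one of the 28 genes was well above background in all 4 channels, so no value rests on a bound.

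**Figure D1:**
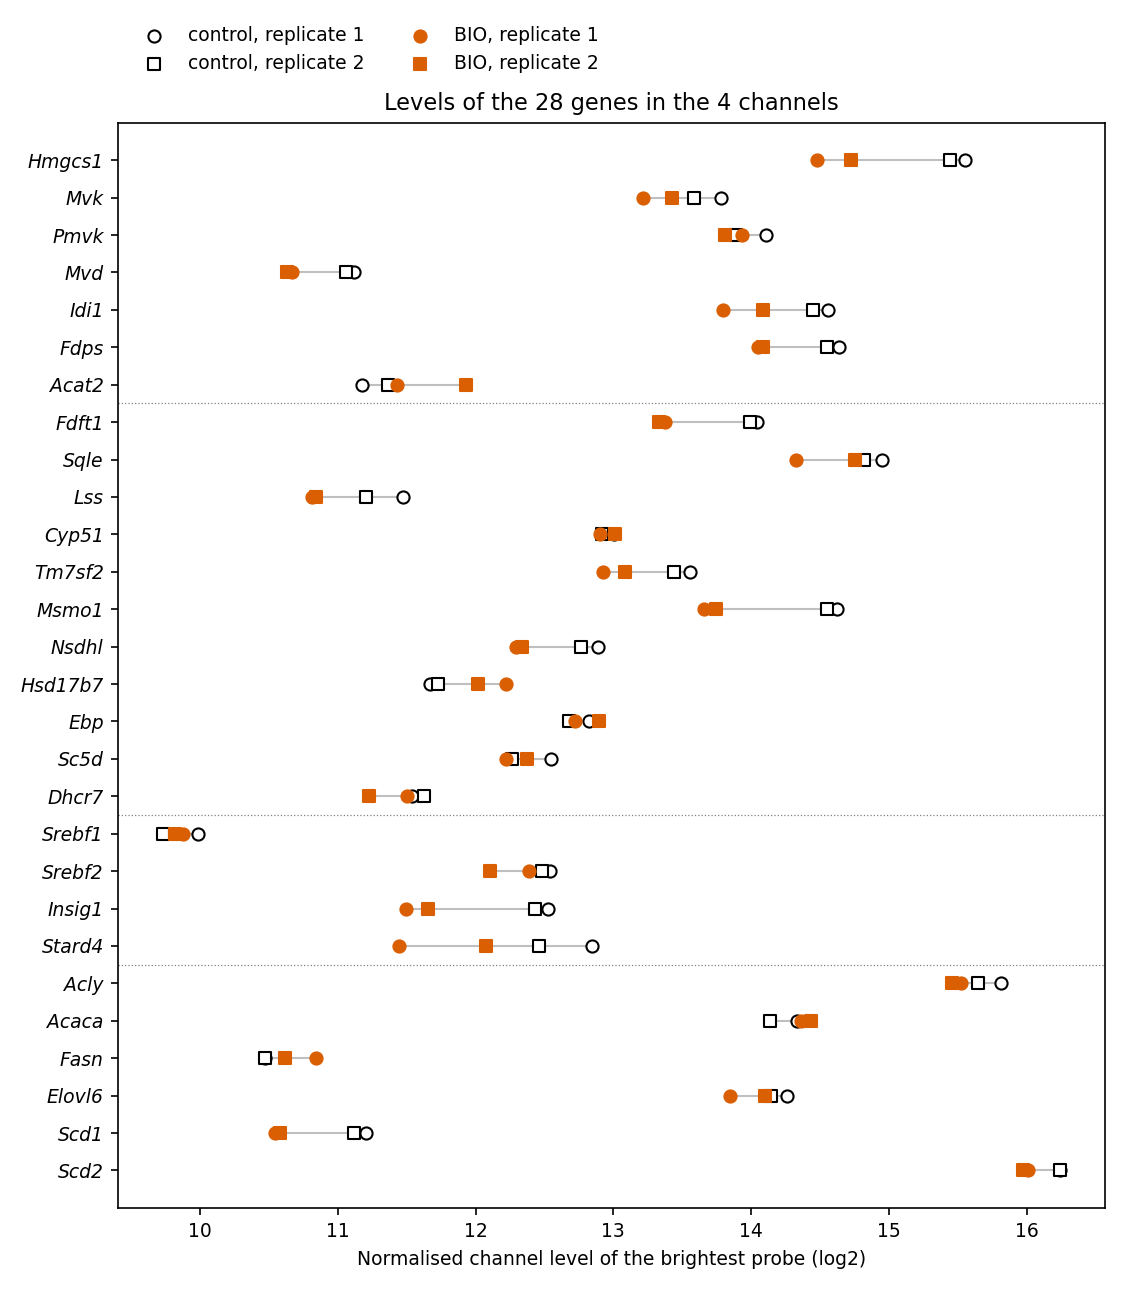
Normalised channel level (x axis, log2) of the brightest probe of each of the 28 genes, with open symbols for control and filled symbols for BIO, circles for replicate 1 and squares for replicate 2. Levels are to be compared within a row only: BIO lies below both controls in 19 rows and above both in 4.

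Promoter stretches are shown for Hmgcs1, Msmo1 and Insig1, which had the lowest ratios among the genes with a sequence to show, and for Cyp51, which had a ratio near 0. They are the 250 bases before the transcript start in RefSeq, assembly GRCm38.p6, 5′ to 3′ along the gene's strand, and the capitals mark the sterol regulatory element (letters TCACNCCAC) and the NF-Y box (CCAAT), each on either strand, so that ATTGG is an NF-Y box on the opposite strand.
Hmgcs1, chr13:119690101-119690350, plus strand: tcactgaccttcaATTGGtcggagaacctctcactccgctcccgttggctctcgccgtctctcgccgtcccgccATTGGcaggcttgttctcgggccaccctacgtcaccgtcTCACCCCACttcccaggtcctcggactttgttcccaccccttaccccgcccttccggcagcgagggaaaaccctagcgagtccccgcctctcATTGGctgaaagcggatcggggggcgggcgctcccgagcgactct
Msmo1, chr8:64733579-64733828, minus strand: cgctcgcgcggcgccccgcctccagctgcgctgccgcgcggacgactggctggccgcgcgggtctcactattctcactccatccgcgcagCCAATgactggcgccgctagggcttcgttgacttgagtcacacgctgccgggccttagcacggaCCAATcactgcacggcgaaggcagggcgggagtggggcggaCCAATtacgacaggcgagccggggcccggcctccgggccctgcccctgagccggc
Insig1, chr5:28071162-28071411, plus strand: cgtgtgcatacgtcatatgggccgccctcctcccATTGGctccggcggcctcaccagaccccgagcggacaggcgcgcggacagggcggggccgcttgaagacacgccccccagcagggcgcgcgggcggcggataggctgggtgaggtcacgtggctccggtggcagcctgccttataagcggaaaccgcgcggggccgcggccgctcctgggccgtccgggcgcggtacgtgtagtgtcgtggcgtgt
Cyp51, chr5:4104698-4104947, minus strand: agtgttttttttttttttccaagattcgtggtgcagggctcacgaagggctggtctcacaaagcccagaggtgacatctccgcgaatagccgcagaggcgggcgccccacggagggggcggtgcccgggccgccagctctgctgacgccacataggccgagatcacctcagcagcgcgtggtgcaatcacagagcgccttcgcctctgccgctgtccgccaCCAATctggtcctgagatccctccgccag

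The RefSeq table held 27 promoter windows for 22 of the 28 genes, each running from 250 bases before to 50 bases after a start. The sterol regulatory element in these letters was present in 1 of the 27 windows, that of Hmgcs1, where it begins at position -137 from the start, and in 1.24% of all 32851 windows of that length. NF-Y boxes were present in 20 of the 27 windows, which belong to 19 genes, and in 37.4% of all windows. All 8 of the genes that fell and had a window held an NF-Y box, as did 11 of the 14 others. Hmgcs1 and Msmo1 each show 3 NF-Y boxes in the printed stretch, and Insig1 and Cyp51 show 1 each. The GC box (GGGCGG) was found in 20 of the 27 windows and in 35.7% of all windows, and by gene in 8 of 8 that fell and 10 of 14 others. The E-box (CACGTG) was found in 4 of the 27 windows, among them those of Insig1 and Hsd17b7, and in 7.15% of all windows. Both strands were searched for each motif, and a match in letters is a description of these windows only.

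The mevalonate steps run from acetyl-CoA to farnesyl diphosphate. Of the 7 genes 4 fell, against 14.7% of all genes tested, and 1 rose, against 9.14%. The median log2 ratio was -0.44. Hmgcs1, which encodes the cytosolic synthase that makes HMG-CoA, had a log2 channel level of 15.55 in control 1, 14.48 in BIO 1, 15.44 in control 2 and 14.72 in BIO 2. Both BIO levels lay below both control levels. Its log2 ratio of BIO over control was -1.07 in replicate 1 and -0.72 in replicate 2. The mean was -0.89 ± 0.12 (SE, n = 2; limma, adjusted p = 0.00167). A dimmer probe of the same gene also fell, by 0.37 on the log2 scale (limma, adjusted p = 0.0426).

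Mvd encodes the decarboxylase that gives isopentenyl diphosphate. Its log2 levels were 11.12 in control 1, 10.67 in BIO 1, 11.06 in control 2 and 10.63 in BIO 2, and the ratios of -0.45 and -0.43 were nearly equal on the arrays (mean -0.44 ± 0.11 SE, limma adjusted p = 0.0215). Idi1, the isomerase that interconverts the isoprenoid units, had log2 levels of 14.56, 13.79, 14.45 and 14.08 in control 1, BIO 1, control 2 and BIO 2. Its mean log2 ratio was -0.57 ± 0.13 (SE), and the ratio in replicate 1, -0.77, was the larger fall of the pair, with -0.36 in replicate 2 (limma, adjusted p = 0.0157). The levels of Fdps, the synthase of farnesyl diphosphate, were 14.64, 14.05, 14.55 and 14.08 in the same order. Its mean log2 ratio was -0.53 ± 0.11 (SE; limma, adjusted p = 0.0107). For all 4 of these genes that fell, no BIO level reached a control level, as was so for 34.3% of all genes tested. The 4 were picked by the test on the same ratios, so this adds no separate support.

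Acat2, the cytosolic thiolase that joins 2 molecules of acetyl-CoA at the start of the pathway, moved in the opposite direction. Its log2 levels were 11.18 in control 1, 11.43 in BIO 1, 11.36 in control 2 and 11.93 in BIO 2, so that both BIO levels were above both control levels, though BIO 1 and control 2 were close. The mean log2 ratio was 0.41 ± 0.12 (SE; limma, adjusted p = 0.0424), and this call held under 2 of 7 alternative ways of processing, with adjusted p from 0.0315 to 0.462. The kinase genes did not pass the test. Mvk, mevalonate kinase, had a mean log2 ratio of -0.37 (95% interval -0.66 to -0.07; limma, adjusted p = 0.0776), and Pmvk, phosphomevalonate kinase, had -0.12 (95% interval -0.38 to 0.13).

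In the sterol steps, from squalene to cholesterol, 5 of 11 genes fell, against 14.7% of all genes tested. The 1 gene of 11 that rose is a share near the 9.14% of all genes. The median log2 ratio was -0.34. Among the genes that fell, Fdft1 acts at squalene formation, Lss at ring closure, and Msmo1 and Nsdhl in the removal of methyl groups. Tm7sf2, which also fell, encodes a sterol reductase. The genes for removal of the methyl groups were not all called lower. The lanosterol demethylase gene Cyp51 did not pass, and Hsd17b7 was called higher on 1 probe of 3. Fdft1, squalene synthase, had log2 levels of 14.04 in control 1, 13.38 in BIO 1, 13.99 in control 2 and 13.33 in BIO 2. Its ratios of -0.67 and -0.66 differed little between the arrays (mean -0.66 ± 0.11 SE, limma adjusted p = 0.00355). A much dimmer probe of Fdft1 had a log2 ratio of -0.16 and did not pass. Lss, lanosterol synthase, had log2 levels of 11.47, 10.81, 11.21 and 10.84 in control 1, BIO 1, control 2 and BIO 2, and a mean log2 ratio of -0.51 ± 0.12 (SE; limma, adjusted p = 0.0174).

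Msmo1 encodes the sterol methyl oxidase that starts removal of the methyl groups at carbon 4 of the ring. Its log2 levels were 14.62 in control 1, 13.66 in BIO 1, 14.55 in control 2 and 13.75 in BIO 2. The BIO levels lay well below the control levels on both arrays, with ratios of -0.96 and -0.81 and a mean of -0.88 ± 0.11 (SE), and the adjusted p of 0.00103 was the smallest among the 28 genes (limma). The probe lies on chromosome 8 at 67196982 to 67197041 (mm9). Nsdhl, the dehydrogenase that follows in the same reactions, had log2 levels of 12.89, 12.29, 12.76 and 12.34 in control 1, BIO 1, control 2 and BIO 2. Its mean log2 ratio was -0.51 ± 0.11 (SE; limma, adjusted p = 0.0130), while its dimmer probe had -0.28 and did not pass. Tm7sf2, a sterol reductase, had log2 levels of 13.56, 12.93, 13.44 and 13.08 in the same order, with a mean log2 ratio of -0.49 ± 0.12 (SE; limma, adjusted p = 0.0192), and its dimmer probe fell by 0.39.

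Hsd17b7, the keto reductase of the same demethylation, was the sterol gene that rose. Its log2 levels were 11.67 in control 1, 12.22 in BIO 1, 11.72 in control 2 and 12.02 in BIO 2, with both BIO levels above both control levels. The mean log2 ratio was 0.42 ± 0.12 (SE; limma, adjusted p = 0.0339). Its other probes had log2 ratios of 0.18 and -0.04 and did not pass, and the call held under 2 of 7 alternatives, with adjusted p from 0.0270 to 0.394, so the rise rests on 1 probe of 3.

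The remaining sterol genes did not pass the test. Sqle, squalene epoxidase, had log2 levels of 14.95 in control 1, 14.33 in BIO 1, 14.82 in control 2 and 14.76 in BIO 2. BIO was clearly lower in replicate 1 and close to control in replicate 2, with ratios of -0.62 and -0.07 (mean -0.34 ± 0.15 SE, limma adjusted p = 0.128). Cyp51, the lanosterol demethylase, had a mean log2 ratio of 0.00 with a 95% interval from -0.26 to 0.26, so a fall as large as that of Msmo1 lay outside its interval. Ebp, a sterol isomerase, had a mean log2 ratio of 0.06 (95% interval -0.22 to 0.34), Sc5d, a desaturase of the ring, had -0.11 (-0.41 to 0.20), and Dhcr7, the reductase of a final step, had -0.22 (-0.50 to 0.07). For Cyp51, Ebp and Sc5d the sign differed between the arrays.

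**Figure D2:**
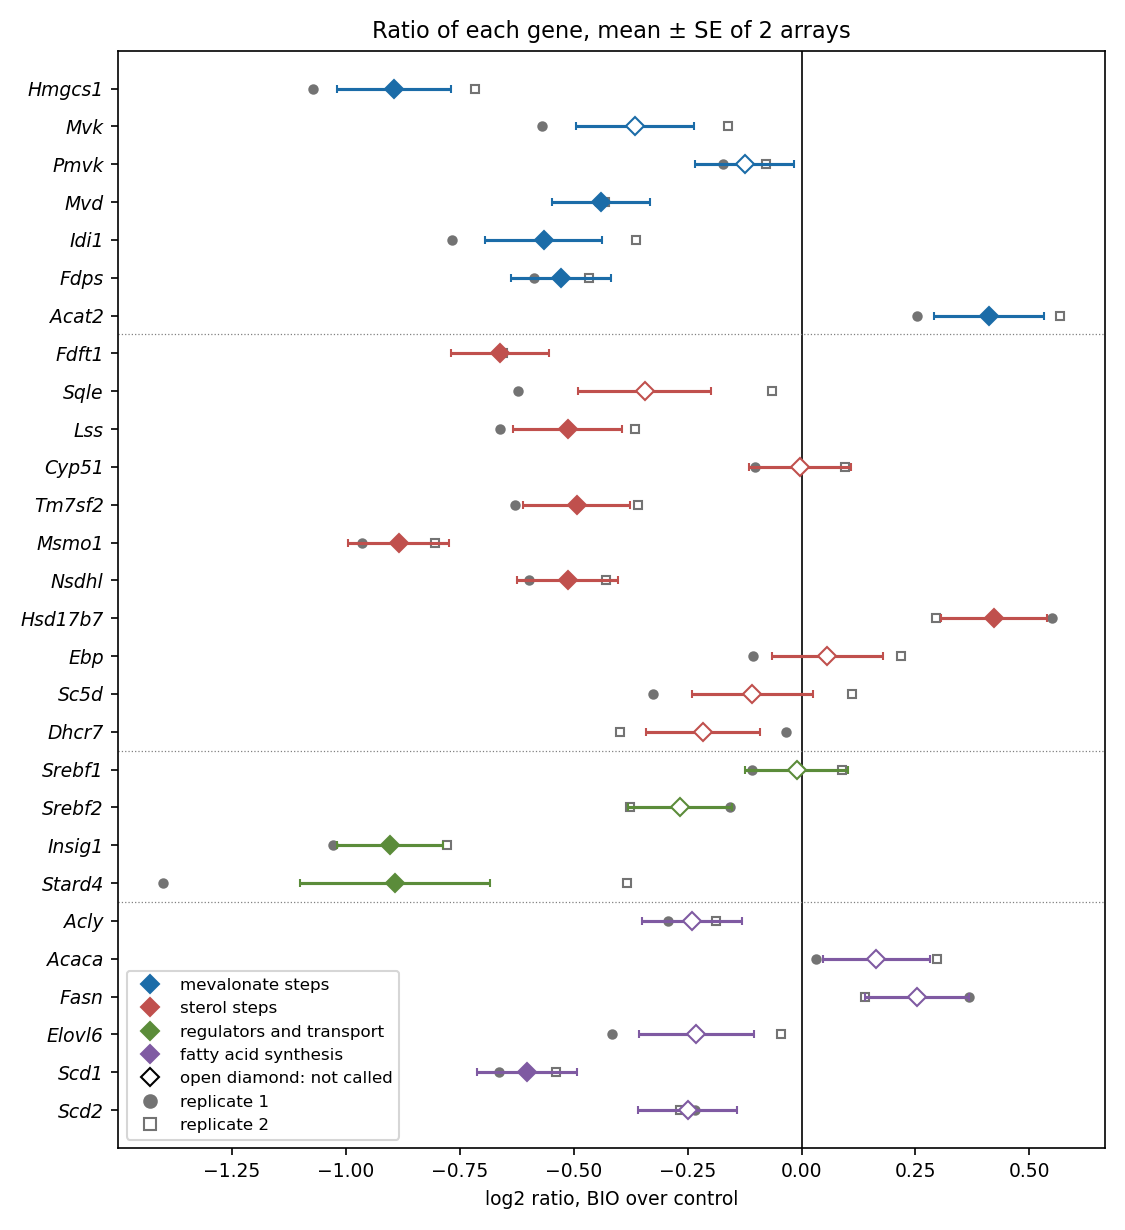
log2 ratio of BIO over control (x axis) for each of the 28 genes in pathway order, with diamonds and bars for the mean ± SE of the 2 arrays, filled where the limma adjusted p was below 0.05, and small symbols for each array. The filled diamonds left of 0 run from -0.90 for Insig1 to -0.44 for Mvd, and those right of 0 are Acat2 and Hsd17b7.

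Among the regulators and transporters, 2 of 4 genes fell, against 14.7% of all genes tested. Insig1, which encodes a protein that retains the SREBP complex in the endoplasmic reticulum and is itself a known SREBP target, had log2 levels of 12.52 in control 1, 11.50 in BIO 1, 12.43 in control 2 and 11.65 in BIO 2. Both BIO levels were below both control levels, the ratios were -1.03 and -0.78, and the mean of -0.90 ± 0.12 (SE; limma, adjusted p = 0.00115) was a 1.87-fold fall. Its probe lies on chromosome 5 at 28404246 to 28404305 (mm9). Stard4, a carrier of cholesterol between membranes, had log2 levels of 12.84 in control 1, 11.44 in BIO 1, 12.46 in control 2 and 12.07 in BIO 2. BIO was lower on both arrays, but by very different amounts, with a ratio of -1.40 in replicate 1 and -0.38 in replicate 2, which gave a mean of -0.89 ± 0.21 (SE; limma, adjusted p = 0.0176). A dimmer probe of Stard4 fell by 0.81 (limma, adjusted p = 0.0113).

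The genes of the transcription factors themselves did not pass. Srebf1 had log2 levels of 9.99 in control 1, 9.88 in BIO 1, 9.73 in control 2 and 9.82 in BIO 2, which overlapped between the groups. Its mean log2 ratio was -0.01 (95% interval -0.27 to 0.25; limma, adjusted p = 0.962). Srebf2 had log2 levels of 12.54, 12.38, 12.48 and 12.10 in the same order, and a mean log2 ratio of -0.27 (95% interval -0.53 to -0.0032; limma, adjusted p = 0.134). The levels of these RNAs do not show how much of the proteins was processed to the active form. Insig2, the second INSIG gene, had a mean log2 ratio of -0.30 and did not pass, and its difference from Insig1 was not tested.

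In fatty acid synthesis 1 of 6 genes fell, a share near the 14.7% of all genes tested, and the median log2 ratio was -0.24. The gene that fell was Scd1, a desaturase that makes monounsaturated fatty acids. Its log2 levels were 11.21 in control 1, 10.54 in BIO 1, 11.12 in control 2 and 10.58 in BIO 2. BIO was below control on both arrays, with ratios of -0.66 and -0.54 and a mean of -0.60 ± 0.11 (SE; limma, adjusted p = 0.00603). Its paralog Scd2 had log2 levels of 16.24, 16.01, 16.24 and 15.97 in the same order. The BIO levels of Scd2 were also lower than both control levels, but the mean log2 ratio of -0.25 (95% interval -0.50 to -0.0027) did not pass after adjustment (limma, adjusted p = 0.135). The difference between Scd1 and Scd2 was not tested.

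Fasn, the fatty acid synthase, had log2 levels of 10.47 in control 1, 10.84 in BIO 1, 10.47 in control 2 and 10.61 in BIO 2. The BIO levels were the higher ones, with a mean log2 ratio of 0.25 (95% interval -0.01 to 0.52; limma, adjusted p = 0.153). Acaca, the acetyl-CoA carboxylase that commits acetyl-CoA to this pathway, had a mean log2 ratio of 0.16, and its 4 probes ranged from 0.12 to 0.24 with 0 of them called. The brightest Acaca probe and the next brightest start at nearly the same base (84215093 and 84215094 on chromosome 11, mm9), so they are not separate readings. Acly, which makes cytosolic acetyl-CoA from citrate and so feeds both pathways, had a mean log2 ratio of -0.24 (95% interval -0.49 to 0.01). Elovl6, an elongase of saturated fatty acids, had -0.23 (95% interval -0.52 to 0.06). Of these genes, Acaca and Fasn had positive ratios on both arrays and Acly and Elovl6 negative ones, and none of the 4 passed the test.

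A further list of 24 genes of the same pathways was read in the same fit. Of these, 5 fell and 1 rose, against the shares of 14.7% and 9.14% among all genes, and the median log2 ratio was -0.14. The largest falls were those of Abcg1, a transporter that exports cholesterol to lipoproteins, and Lpin1, a phosphatidate phosphatase of glycerolipid synthesis. Abcg1 had log2 levels of 10.59 in control 1, 8.81 in BIO 1, 10.57 in control 2 and 9.50 in BIO 2, and fell by 1.42 ± 0.17 on the log2 scale (SE; limma, adjusted p = 0.000710). Lpin1 had 10.01, 8.85, 9.96 and 8.72 in the same order, and fell by 1.19 ± 0.11 (SE; limma, adjusted p = 0.000236). These 2 genes also passed the intensity and fold-change rule.

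The other genes of that list that fell were Abca1, a second exporter of cholesterol, with a mean log2 ratio of -0.50 (limma, adjusted p = 0.0152), Mbtps1, the protease that makes the first cut in SREBP, with -0.42, and Elovl5, an elongase of polyunsaturated fatty acids, with -0.38. Soat1, which esterifies cholesterol for storage, rose. Its log2 levels were 11.10 in control 1, 11.81 in BIO 1, 11.12 in control 2 and 11.65 in BIO 2, with a mean log2 ratio of 0.62 ± 0.11 (SE; limma, adjusted p = 0.00576). Scap, the escort protein of SREBP, had a mean log2 ratio of 0.09, and the sterol-sensing receptor genes Nr1h3 and Nr1h2 had -0.28 and -0.19, and none of these 3 passed.

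The falls were larger in replicate 1. All 12 genes that fell had the more negative ratio in replicate 1, as did 70.9% of the 3183 genes called lower on the whole array. Over all 28 genes, 23 had the lower ratio in replicate 1, or 82.1%, against 58.6% of all genes tested. The largest gap between the arrays was that of Stard4, at 1.02 on the log2 scale, and the median gap was 0.25 for the 28 genes and 0.16 for all genes tested. Across the 28 genes, Pearson's r between the arrays was 0.78. BIO RNA was red in replicate 1 and green in replicate 2, so dye and replicate cannot be told apart. Without replicate 2, Insig1 and Stard4 passed the 2-fold rule, and without replicate 1, 0 of the 28 genes did.

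Of the 14 calls, Fdft1 kept its call in all 7 alternatives. Hmgcs1, Msmo1, Insig1 and Scd1 kept theirs in all 6 alternatives made from the scanner intensities and lost it in the deposited score table, where adjusted p ran from 0.101 for Scd1 and 0.102 for Msmo1 to 0.171 for Hmgcs1. The other 7 calls of a fall each lost significance in 1 to 3 alternatives, and there were 8 falls with the processed signals, 7 with median centring and 5 with the deposited scores. In these alternatives and in either array alone, 0 of the 14 calls changed sign. The deposited scores are rounded. With them Fdft1, Mvd and Fdps shared an adjusted p of 0.0342 (limma), at log2 ratios of -0.58, -0.38 and -0.49. The larger falls of Insig1 (-0.88) and Msmo1 (-0.85) did not pass there, so a call in the scores did not follow the size of the fall.

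**Figure D3:**
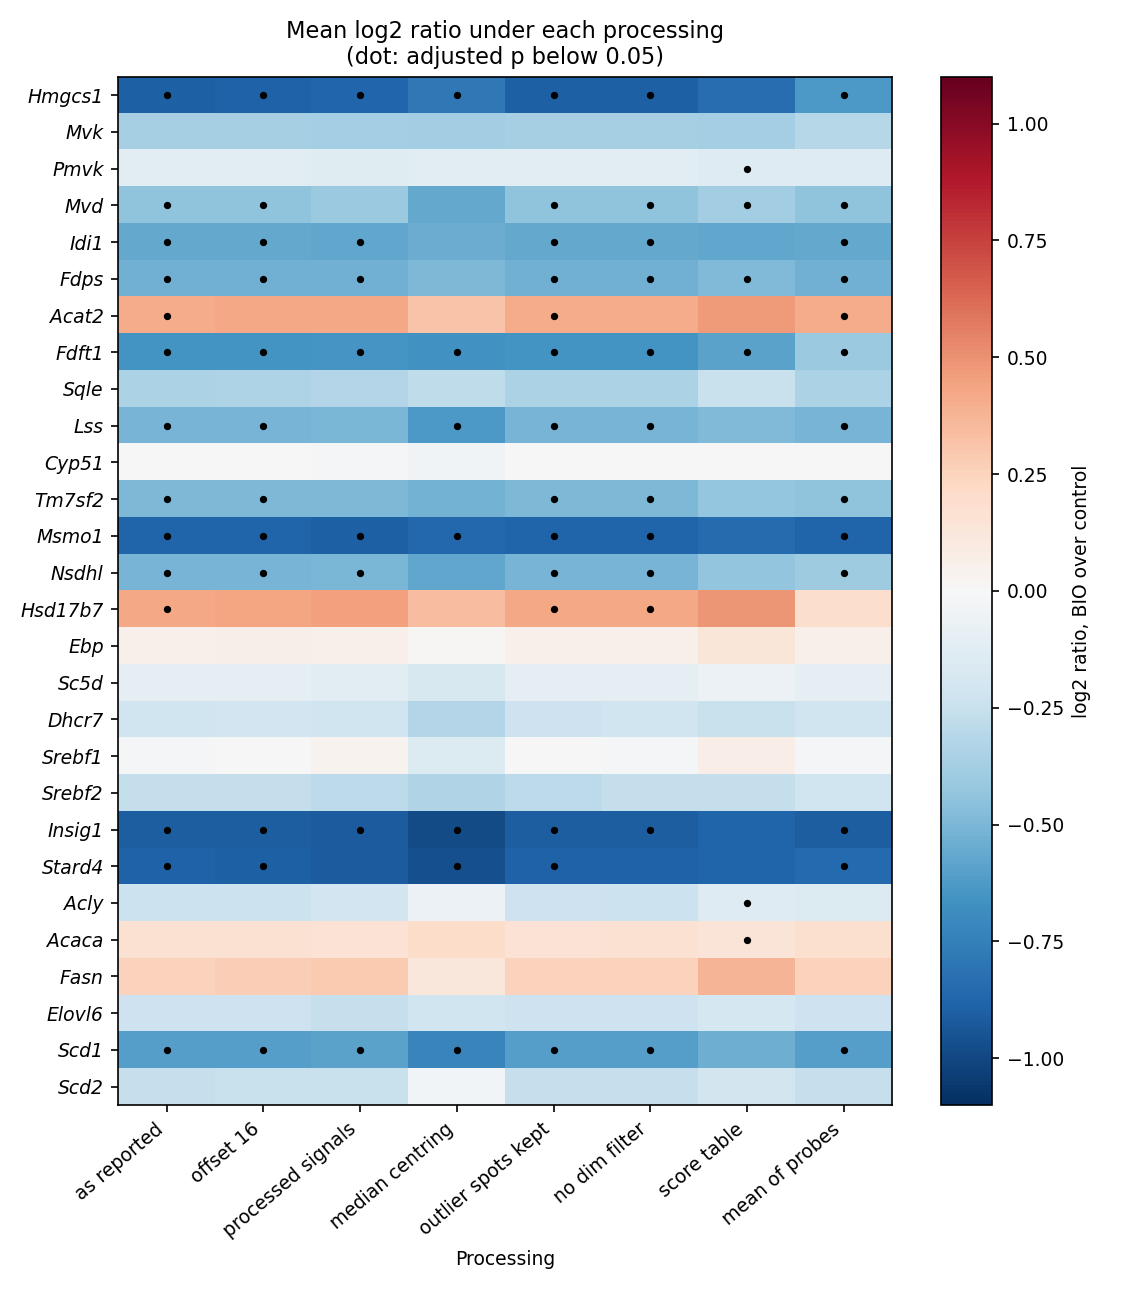
Mean log2 ratio of BIO over control (colour, blue lower and red higher) for each of the 28 genes (rows) under each way of processing (columns), with a dot where the adjusted p was below 0.05. The first column is the result as reported, with 14 dots, and Fdft1 has a dot in every column.

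Markers of several cell types moved in the same samples, and their part in the results above was not tested. Of 9 epithelial markers 6 fell (median log2 ratio -0.91), of 9 mesenchymal markers 6 fell (-0.56), of 8 endothelial markers all fell (-2.07), and of 6 macrophage markers 4 fell (-0.49). The share called lower over all genes tested was 14.7%. Among the 6 epithelial markers that fell, Upk1b was well above background in neither BIO channel and entered the test through the control channels only. The summed linear level of the endothelial markers was 80722 and 86478 in control and 14765 and 25236 in BIO, the largest relative fall among these lists. The epithelial sum was 236501 and 217463 in control and 130530 and 147942 in BIO, and the mesenchymal sum was 674961 and 694124 in control and 451651 and 427089 in BIO. Bright probes weigh most in such sums, here Krt8 and Krt18 in epithelium and Col1a1, Col3a1 and Vim in mesenchyme. The epithelial markers Epcam, Cldn4 and Gata3 did not pass the test, with mean log2 ratios of 0.02, -0.12 and -0.10. Nor did the mesenchymal markers Tbx18, Foxf1 and Tcf21, with -0.22, -0.16 and -0.32. The macrophage sum was 16031 and 16735 in control and 9342 and 13371 in BIO. Among Schwann cell precursor markers 1 of 4 tested fell, with sums of 64910 and 61769 in control and 44101 and 56407 in BIO.

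Of 4 erythroid markers, 0 passed the limma test, with a median log2 ratio of -0.33 and sums of 85370 and 78131 in control and 74199 and 55926 in BIO. The 4 fat cell markers Adipoq, Plin1, Cidec and Lep were well above background on both arrays in neither group, with sums of 305 and 307 in control and 308 and 315 in BIO. All 10 cell cycle genes rose, against 9.14% of all genes tested, with a median log2 ratio of 0.97. Their sum was 165703 and 167430 in control and 288013 and 302166 in BIO. For the 28 genes the same sum was 457338 and 424873 in control and 333154 and 353010 in BIO. Bright probes weigh most in this sum too, so it is not a level of the pathway. Scd2, Acly and Hmgcs1 had the highest control levels, and Scd2 and Acly were not called.

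**Figure D4:**
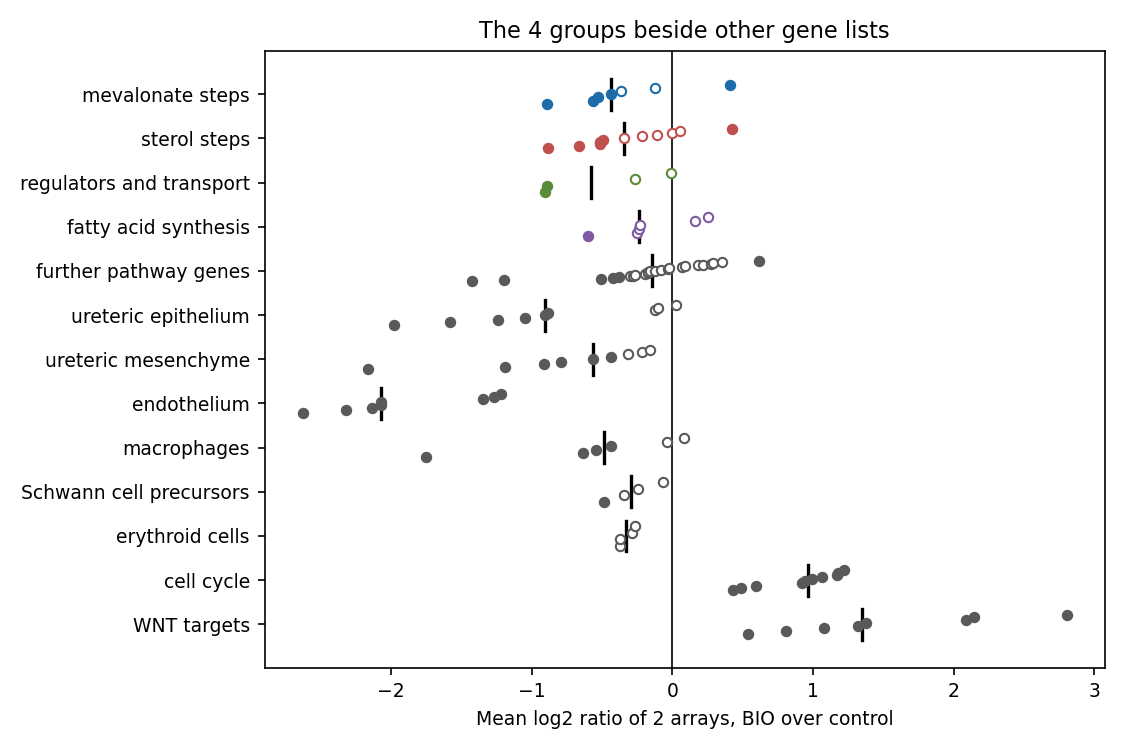
Mean log2 ratio of BIO over control (x axis) of each tested gene in the 4 role groups and in the other gene lists, filled where the limma adjusted p was below 0.05, with a black line at the median of each list. The medians of the role groups lie between -0.58 and -0.24, those of endothelium and WNT targets at -2.07 and 1.35.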

How the data were processed

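E12.5 ureter explants treated with BIO or DMSO were compared on 2 two-color arrays with exchanged dyes. The authors scanned the arrays and quantified them with Agilent Feature Extraction 10.7.3.1 (submitters' processing notes). The deposited scanner tables hold spot intensities, 4 spots per probe. The authors also deposited 1 score per probe and array, which tracked, as a signed fold change, the processed ratio of BIO to control, with centring unknown, a column median of 1 on both arrays and 0 columns left unused.

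The computations ran in R 4.3.3 with limma 3.58.1. Mean intensities underwent background correction by normexp (offset 50) and loess normalization, with control and outlier spots at weight 0 and then left out. Ratios were turned to BIO over control. The 28824 probes well above background in one group on both arrays were tested against 0 (lmFit, eBayes, two-sided, Benjamini-Hochberg at 0.05). A gene is its brightest probe. Channel levels were quantile-normalized on the average intensity (Aquantile), which leaves ratios unchanged. Intervals are 95%, from the moderated SE. The fold-change rule used processed signals with a floor of 15, at least 2-fold on both arrays and a brighter channel of at least 100. The prior had 7.14 degrees of freedom, and the median SE was 0.11. Precision is limited by the number of arrays. The adjusted p-values rest mostly on this prior, which is shared by all tested probes, and less on a gene's own spread between 2 arrays. Dye and pool cannot be told apart in that spread. The offset pulls dim probes toward 0. Both arrays lay on 1 slide. Probe coordinates are in mm9. The script was tested on simulated data. All genes of the list are named. The genes and lists were chosen with earlier results of these data known. Other genes of these pathways are not reported here.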

Additional observations from a re-analysis of the deposited data

How the results depend on the processing

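The results for the 28 genes were recomputed with another offset, with processed signals, with median centring and with outlier spots kept. They were also recomputed with no filter on dim probes, the deposited score table and the mean of a gene's probes. Alternatives for the other gene lists are not given. The count of genes that fell was 12 as reported, 7 with median centring and 5 with the score table, of which 3 were among the 12. In the other alternatives it was 8 to 12. The count of genes that rose was 2 as reported, 0 with an offset of 16, 0 with processed signals, 0 with median centring, and 1 each with no filter on dim probes, the deposited scores or probe means. The cause was not tested. The median log2 ratio of the 28 genes was -0.43 to -0.31 when 1 array was left out and -0.32 to -0.25 in the other alternatives. The number of genes past the intensity and fold-change rule was 4 at a minimum of 1.5-fold, 0 at 3-fold, and 0 to 2 when 1 array was left out.

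The score table is rounded, with 5739 tested probes equal on both arrays. It called Pmvk and Acly lower and Acaca higher, which passed in no other processing. Each array holds the BIO and control RNA of 1 replicate, so the test of the ratios within arrays is itself paired, and no fit with a further replicate block was made.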
